A study of Drosophila melanogaster with 15 samples.

Results

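The genes of the proteasome were described in 15 RNA sequencing libraries of Drosophila melanogaster eye discs. Genes were taken by symbol, as those that start with Pros, or with Rpn or Rpt and a digit, and that reached at least 1 FPKM (a fragment count corrected for the length of the transcript and the depth of the library) in at least 3 libraries. The symbols caught 42 genes, of which 30 passed the filter, out of 9213 genes that passed it in all. These 30 were 6 subunits of the alpha ring and 6 of the beta ring of the 20S core, 8 of the base and 7 of the lid of the 19S particle, 2 second copies of base subunits (Rpt3R and Rpt4R), and Prosap. Prosap encodes a scaffold protein of the Shank family and is caught by its letters alone. It is no proteasome subunit, so the counts over subunits run over 27 genes.

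The proteasome degrades proteins that carry ubiquitin chains. Its 20S core is a barrel of outer alpha rings and inner beta rings, and the cutting sites lie on the subunits beta1, beta2 and beta5. The 19S particle caps the barrel: its base holds the Rpt ATPases that unfold and push in the substrate, and its lid holds Rpn11, which cuts off the ubiquitin chain. In the fly eye disc, timed destruction of regulators such as Cubitus interruptus and Cyclin E depends on ubiquitin ligases, and dominant mutants of the core subunits beta2 and beta6 are known in flies.

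The libraries held polyadenylated RNA of eye discs of third-instar larvae, the larval tissue that forms the adult eye, and the study compared fly Yki with its relatives from a choanoflagellate and a placozoan. Yki and Yap are the coactivators that the Hippo pathway restrains and that act through TEAD-family proteins. All 5 groups of 3 libraries carried the driver GMR-Gal4, which is active behind the morphogenetic furrow, and a UAS-eGFP transgene, which the control carried alone. The other groups added UAS transgenes for Monosiga Yap, for Monosiga Yap with a human TEAD-binding domain (Monosiga Yap-TBD), for Drosophila Yki S168A, or for Trichoplax Yap S81A. The GFP-positive domain was cut out of 25 to 30 discs per library, so each library is a pool of animals. Per the labels, the RNA of each genotype was extracted in triplicate, and nothing more is said of how the replicates differ, so p-values measure the spread between these libraries. The labels give eyes of the control as normal, differentiation defects with every other construct, added strong ectopic proliferation with Monosiga Yap-TBD and Trichoplax Yap S81A, and a middle degree of it with Yki S168A.

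The estimated depth was 12 to 20.6 M fragments per library. The lowest number of fragments behind a subunit gene in any library was about 890, which gives a counting error of 3.34%. These numbers are estimates, from transcript lengths of the build BDGP6 less 200 bases, while the files use dm3. The 9 eye disc marker genes summed to 615 to 774 FPKM in the control and to 551 to 707 with Monosiga Yap. They summed to 244 to 344 FPKM with Monosiga Yap-TBD, 394 to 494 with Yki S168A and 366 to 417 with Trichoplax Yap S81A. The 4 glia markers summed to 249 to 262 FPKM in the control and to 320 to 366 with Monosiga Yap-TBD. In the other groups they summed to 262 to 297 FPKM with Monosiga Yap, 248 to 269 with Yki S168A and 289 to 313 with Trichoplax Yap S81A. The highest value of a single glia marker in any library was 338 FPKM, so these sums can follow mainly 1 gene. In bulk tissue, fewer cells of a type and less RNA per cell cannot be told apart. Trichoplax Yap S81A replicate 1 stood apart, with 4503 FPKM of 5 fat body markers against at most 44.9 in the other 14 libraries, and the Trichoplax Yap S81A calls are given with and without it. Hemocyte, muscle and testis markers summed to at most 48.3, 16.3 and 12.8 FPKM in any library, and no marker list had a gene at 0 in all of them.

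In the control the 27 subunit genes lay within a narrow range of levels per length. The highest was Pros25 (the alpha2 subunit) at 228 ± 20.3 FPKM (SD, n = 3), and the lowest were the base scaffold genes Rpn2 at 80.7 ± 10.2 and Rpn1 at 79.5 ± 9.94 FPKM. In that order the libraries of each gene overlapped with those of the next, except between Rpt4 (108 ± 6.75 FPKM) and Rpn11 (94.7 ± 4.80 FPKM). Means ran from 161 to 228 FPKM in the alpha ring, 124 to 194 in the beta ring, 79.5 to 152 in the base and 85.3 to 135 in the lid. The second copies stood far below, Rpt3R at 4.15 ± 0.275 and Rpt4R at 3.07 ± 0.664 FPKM.

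Of the 12 genes caught by symbol that failed the filter, 11 are second copies, most of them known from the testis. They are Pros28.1A, Pros28.1B, Prosalpha3T, Prosalpha6T, Prosbeta2R1, Prosbeta2R2, Prosbeta4R1, Prosbeta4R2, Prosbeta5R, Rpn12R and Rpt6R. Nearest to the limit was Rpt6R, whose highest value was 1.12 FPKM in control replicate 2 and which reached 1 FPKM in 1 library. Just inside it was Rpt4R, which reached 1 FPKM in 10 libraries. The highest value of the other 10 was 0.756 FPKM. The other failing gene is Prosalpha1, an alpha ring subunit that is listed at 0 in every library. Its neighbour CG30382, 1736 bases away, is listed at 0 as well. A listed 0 can be a failed estimate, so these values do not show that the genes are silent.

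The median of the core genes was highest with Monosiga Yap-TBD. The median of the 12 core genes was 183, 182 and 150 FPKM in the 3 control libraries, and 161, 157 and 194 FPKM with Monosiga Yap. It was 226, 277 and 237 FPKM with Monosiga Yap-TBD, 211, 201 and 225 with Yki S168A, and 184, 213 and 192 with Trichoplax Yap S81A. The Monosiga Yap-TBD libraries lay above all others, although their lowest exceeded the highest Yki S168A library by little. The median of the 15 genes of the 19S particle moved less, from 115, 101 and 105 FPKM in the control to 119, 133 and 124 FPKM with Monosiga Yap-TBD. The ratio of the core median to the 19S median was 1.60, 1.80 and 1.43 in the control and 1.89, 2.09 and 1.92 with Monosiga Yap-TBD. It was 1.58, 1.46 and 1.55 with Monosiga Yap, 1.76, 1.72 and 1.74 with Yki S168A, and 1.73, 1.89 and 1.59 with Trichoplax Yap S81A. These medians are descriptions of chosen genes and were not tested.

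**Figure D1:**
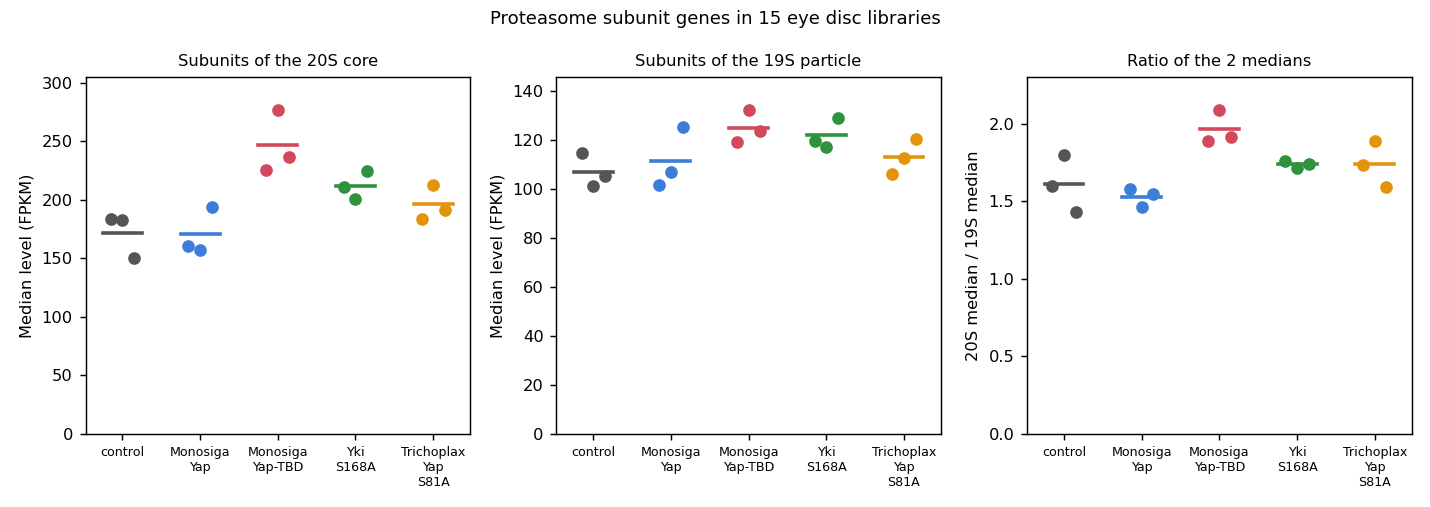
Median level in FPKM of the 12 core genes and of the 15 genes of the 19S particle, and the ratio of these medians, in each of 15 libraries (points, by construct; lines are group means). The core median of the 3 Monosiga Yap-TBD libraries (226, 277 and 237 FPKM) stands above the 3 control libraries (150 to 183 FPKM), while the 19S medians of these groups lie closer.

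Against the control, Monosiga Yap-TBD raised 11 of the 12 core genes, 2 of the 15 genes of the 19S particle (Rpn5 and Rpn11) and so 13 of the 30 members, where 12.6% of all tested genes rose (limma, Benjamini-Hochberg adjusted p under 0.05). The median log2 fold change was 0.54 in the core, with a range of 0.36 to 0.64, and 0.20 in the 19S particle, with a range of 0.07 to 0.53; over all tested genes it was 0.01. All 12 core genes were higher in every Monosiga Yap-TBD library than in every control library. Of the 19S genes this held for 5, all of them in the lid, and of all tested genes for 23.2%. The lower members were the second copies Rpt3R and Rpt4R, where 12.0% of all tested genes fell.

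The subunits that carry the cutting sites rose by similar amounts. Prosbeta5, of the chymotrypsin-like site (2R, 6707469 to 6708685, dm3), stood at 166, 177 and 133 FPKM in the control and at 215, 290 and 238 FPKM with Monosiga Yap-TBD. The groups did not overlap, and the mean was 1.56-fold higher (log2 fold change 0.64 ± 0.157 SE, limma adjusted p = 0.00875). Prosbeta1, of the caspase-like site (2R, 11901309 to 11902285), stood at 145, 175 and 116 FPKM in the control and at 211, 201 and 206 FPKM with Monosiga Yap-TBD, which was 1.42-fold higher (limma adjusted p = 0.0106). The treated libraries lay close together and the control libraries did not. Prosbeta2, of the trypsin-like site (3L, 14993036 to 14994419), went from 190, 187 and 163 to 251, 267 and 236 FPKM, again without overlap (1.39-fold, limma adjusted p = 0.0025). Prosbeta1 and Prosbeta2 overlap a gene on the other strand (CG8389 and Reck), and since the use of strand is not stated, the reads of such pairs cannot be told apart.

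The structural subunits of the beta ring behaved alike apart from Prosbeta3. Prosbeta7 (3R, 1182734 to 1184086) had the lowest p of the core genes: 205, 207 and 171 FPKM in the control and 274, 303 and 283 FPKM with Monosiga Yap-TBD. The groups lay far apart, and the mean was 1.48-fold higher (log2 0.56 ± 0.0938 SE, limma adjusted p = 0.000533). Pros26, the beta6 subunit, rose 1.41-fold (limma adjusted p = 0.00643). Prosbeta3 (3R, 4831035 to 4831948) was the core gene that missed the threshold, with 165, 119 and 89.3 FPKM in the control and 173, 179 and 214 with Monosiga Yap-TBD. Its fold of 1.52 was within the range of the others, its libraries did not overlap, and its standard error of 0.229 was the largest of the 27 subunits (limma adjusted p = 0.0577).

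All 6 alpha ring genes rose, by 1.28-fold or more. Prosalpha5 (2R, 13300269 to 13301274) held 192, 223 and 154 FPKM in the control and 266, 328 and 257 FPKM with Monosiga Yap-TBD. The groups did not overlap (log2 0.59 ± 0.138 SE, limma adjusted p = 0.0065). Pros28.1, the alpha4 subunit (X, 16170305 to 16171621), went from 183, 163 and 141 FPKM to 202, 225 and 198 FPKM, the smallest fold of the core at 1.28 (limma adjusted p = 0.0204). Of the core genes, 8 overlap no other gene, and all 8 rose. The other 4 overlap a gene on the other strand, and 3 of these rose.

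**Figure D2:**
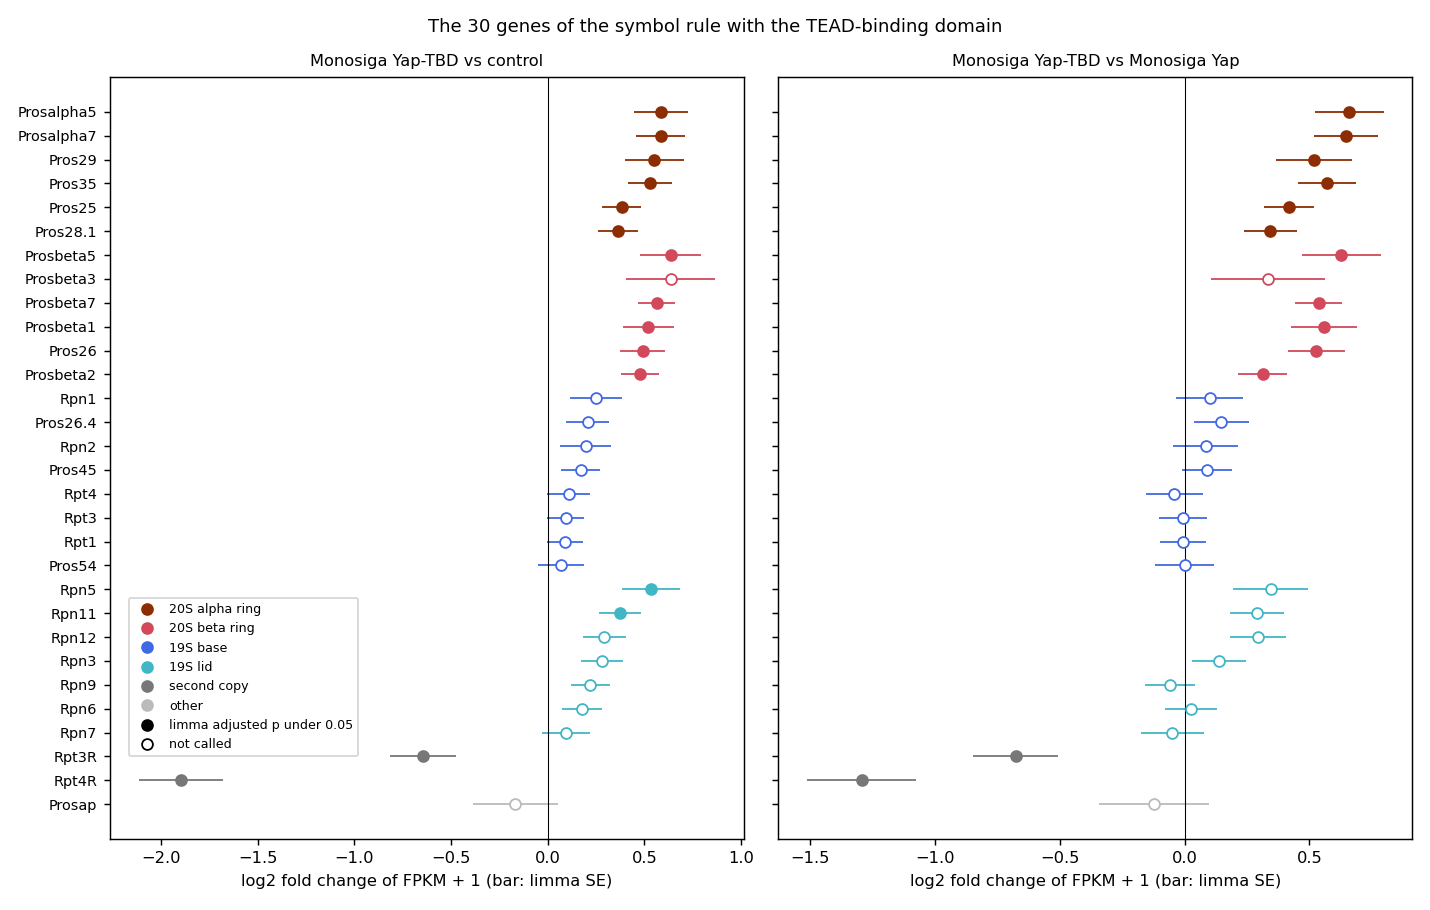
Log2 fold change of FPKM + 1 for the 30 genes with Monosiga Yap-TBD, against the control and against Monosiga Yap (points; bars are limma standard errors; filled points have a limma adjusted p under 0.05). In each panel 11 of the 12 core genes are filled and to the right of 0, most 19S genes are open, and Rpt3R and Rpt4R are filled and to the left.

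In the base of the 19S particle no gene passed the threshold. The 8 base genes had log2 fold changes of 0.07 to 0.25, all positive. With quantile normalization the lowest change of the 19S genes was -0.12. None of them had an unadjusted limma p under 0.05, and none was free of overlap between the groups. Over all tested genes 36.1% had such a p and 43.3% were free of overlap. Rpt1, an ATPase of the base, stood at 145, 132 and 142 FPKM in the control and at 141, 160 and 145 FPKM with Monosiga Yap-TBD, and these groups overlapped (limma adjusted p = 0.552). In the lid, Rpn5, a scaffold subunit (3R, 1615211 to 1617291), stood at 97.5, 76.8 and 81.6 FPKM in the control and at 120, 132 and 118 FPKM with Monosiga Yap-TBD. The groups did not overlap, and the mean was 1.45-fold higher (limma adjusted p = 0.0172). Rpn11, the deubiquitinating subunit (2L, 5058404 to 5059816), went from 99.3, 95.2 and 89.7 to 114, 133 and 124 FPKM, again without overlap (1.30-fold, limma adjusted p = 0.0205). Both calls were lost without control replicate 2, control replicate 3 or Monosiga Yap-TBD replicate 2 and with quantile normalization, and that of Rpn11 also without Monosiga Yap-TBD replicate 3. The other 5 lid genes had log2 fold changes of 0.09 to 0.29 and did not pass.

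The count of 13 varied with the library left out. A fit with fewer libraries can also change how many of all tested genes are called, and those shares are not given here. The number was 8 of 30 without control replicate 3, and 8 of 30 without Monosiga Yap-TBD replicate 2, all 8 of them core genes in both cases. The core genes lost in both cases were Pros25, Pros28.1 and Pros29. The call of Pros28.1 was also lost in a fit of those groups alone, and that of Prosbeta1 with quantile normalization. Control replicate 3 was below the control mean in all 12 core genes. The members of a library thus moved together, and their number is not a number of replicates. With quantile normalization the core median fell to 0.38 with 10 core genes called, and the 19S median to 0.03 with none called; the difference between these medians was 0.34 as deposited and 0.36 after quantile normalization.

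The sums of the eye disc and glia markers given above moved with the same contrast, and their part in it was not tested. Nor was the part of level and length. All tested genes within the range of mean FPKM of the 27 subunits (86.7 to 253 FPKM, 729 genes) had a median log2 fold change of 0.17, and 25.9% of them rose. Within that range, the 194 genes that span under 1500 bases had a median of 0.32, and 34.0% of them rose. These sets, here and below, include the subunits themselves. Of the 66 genes under 1500 bases that rose, 11 were core genes and 1 was of the 19S particle. The core genes span 914 to 1384 bases and the 19S genes 1040 to 3797. Across the 27 subunits the log2 fold change had a correlation of -0.56 with the log2 span; within the 12 core genes r was -0.41 and within the 15 of the 19S particle 0.08. With the log2 mean FPKM these correlations were 0.61, -0.37 and -0.22. These genes share all 6 libraries, so the correlations are descriptions. The 3 genes of the 19S particle that span under 1500 bases had a median log2 fold change of 0.29, and the core genes, all under that length, one of 0.54.

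**Figure D3:**
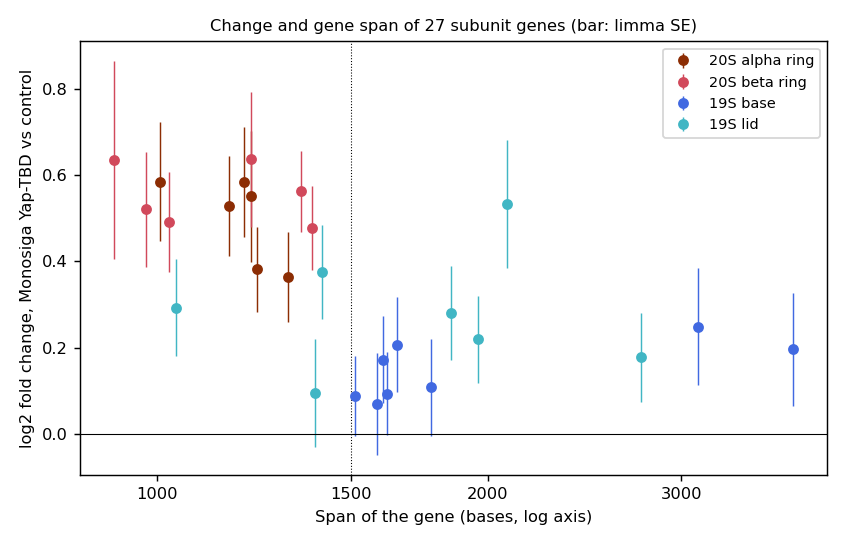
Log2 fold change with Monosiga Yap-TBD against the control (limma standard errors as bars) of the 27 subunit genes by the span of the gene in bases, on a log axis, with a dotted line at 1500 bases. The 12 core genes lie at 914 to 1384 bases with changes of 0.36 to 0.64, and the base genes lie beyond 1500 bases with changes of 0.07 to 0.25.

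The comparison with Monosiga Yap asks what the TEAD-binding domain adds, and it shares the Monosiga Yap-TBD libraries with the one above. Of the 30 members 11 were higher with the domain, where 14.3% of all tested genes were, and all 11 were core genes. Among the genes within the subunits' range of mean FPKM the share was 30.6%. Among those of them under 1500 bases it was 46.4%, with a median log2 fold change of 0.42. The subunits are part of these sets, and 11 of the 90 higher genes under 1500 bases were core genes. Prosbeta3 was again the exception (log2 0.33, limma adjusted p = 0.322). The core median was 0.53. For Prosbeta5 the Monosiga Yap libraries held 151, 147 and 180 FPKM, below all 3 with the domain (1.55-fold, limma adjusted p = 0.00884). Prosalpha5 had the largest positive difference, with 171, 166 and 200 FPKM in the Monosiga Yap libraries (log2 0.66 ± 0.138 SE, limma adjusted p = 0.00275).

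In the same comparison 0 of the 15 genes of the 19S particle were called by limma, and 3 had an unadjusted p under 0.05 (Rpn5, Rpn11 and Rpn12). Over all tested genes the share with such a p was 36.7%. The median log2 fold change of the 15 genes was 0.08. With quantile normalization it was -0.11, Rpn9 and Rpt1 were then called lower, and 8 core genes were still called higher, with a core median of 0.35. The direction of the 19S genes in this comparison thus turned with the scaling, and that of the core did not. Both Rpt3R and Rpt4R were lower with the domain, where 12.2% of all tested genes were. The count of 11 was 8 without Monosiga Yap replicate 1, without Monosiga Yap replicate 2 or without Monosiga Yap-TBD replicate 2, and 14 without Monosiga Yap replicate 3. Without Monosiga Yap replicate 1 the 19S median was -0.04. The shares of all tested genes called in these fits with a library left out are not given here.

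With Monosiga Yap no member was called against the control. The count was 0 of 30 by limma, where 0.228% of all tested genes were higher and 0.0977% lower. An unadjusted limma p under 0.05 was found for 2 members (Rpt4R and Rpn9), where 4.94% of all tested genes had one. The core median was -0.01 on the log2 scale and the 19S median was 0.11. Prosbeta3 had the largest positive change, from 165, 119 and 89.3 FPKM to 161, 162 and 127 FPKM, with overlap between the groups (limma adjusted p = 1). The authors' deposited table gives it the other direction (fold 0.866). Rpn9, a lid subunit, had a log2 fold change of 0.28 (limma adjusted p = 0.742). The Monosiga Yap libraries differed among themselves: replicate 1 exceeded every control library in 1 of the 15 genes of the 19S particle, replicate 2 in 13 and replicate 3 in 14.

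With Yki S168A, 4 of the 30 members rose against the control, where 5.42% of all tested genes rose, and 12.5% of those within the subunits' range of mean FPKM. None of the 30 fell by this test (1 had an unadjusted limma p under 0.05, Rpt4R), where 6.52% of all tested genes fell. They were Pros28.1, Prosbeta2, Prosbeta7 and Rpn5. Pros28.1 went from 183, 163 and 141 FPKM to 214, 221 and 225 FPKM without overlap (log2 0.45 ± 0.105 SE, limma adjusted p = 0.0127). Prosbeta2 reached 223, 237 and 247 FPKM (limma adjusted p = 0.0188) and Prosbeta7 247, 233 and 257 FPKM (limma adjusted p = 0.0307), each above all control libraries. Rpn5 reached 118, 107 and 134 FPKM and was at the edge of the threshold (limma adjusted p = 0.0498). That call was lost with the replicate number as a block, with a pseudocount of 0.1, with no filter on low values, with quantile normalization and in a fit of those groups alone. With quantile normalization 1 gene of the 19S particle was called higher.

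All 12 core genes had positive changes with Yki S168A, from 0.11 to 0.45 on the log2 scale, with a median of 0.33. The 19S median was 0.16, and that of all tested genes within the subunits' range of mean FPKM was 0.14. The libraries of 7 core genes lay above all control libraries, as did those of 16.6% of all tested genes. The count of 4 varied with the library left out. It stayed at 4 without control replicate 1 and without control replicate 2. There were 0 without control replicate 3, 2 without Yki S168A replicate 1, 2 without its replicate 2 and 1 without its replicate 3. The shares of all tested genes called in these fits are not given here. The largest change among the members was that of Prosap, from 39.4, 33.6 and 45.2 FPKM to 67.9, 64.4 and 50.7 FPKM, which did not pass (log2 0.62, limma adjusted p = 0.088). The smallest change of a subunit was that of Rpt1 (log2 0.00).

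With Trichoplax Yap S81A no subunit gene was called against the control, and 4 of the 27 had an unadjusted limma p under 0.05 (Prosbeta2, Prosbeta7, Prosalpha5 and Rpn11). Of all tested genes 6.09% were called higher and 6.09% lower, and 25.5% had an unadjusted p under 0.05, a larger share than that of the subunits. Core changes were positive in 12 of 12 genes with a median of 0.22, and 19S changes in 7 of 15 with a median of -0.00. All tested genes within the subunits' range of mean FPKM had a median of 0.10. The largest core change was that of Prosalpha5, at 241, 264 and 220 FPKM, of which the lowest lay within the control range (log2 0.36, limma adjusted p = 0.115). Among the base genes 7 of 8 changes were negative, the lowest that of the ATPase gene Rpt4 (log2 -0.17, limma adjusted p = 0.367). Without replicate 1, the library with fat body markers, the core median was 0.23, the 19S median 0.02, and no subunit gene was called.

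**Figure D4:**
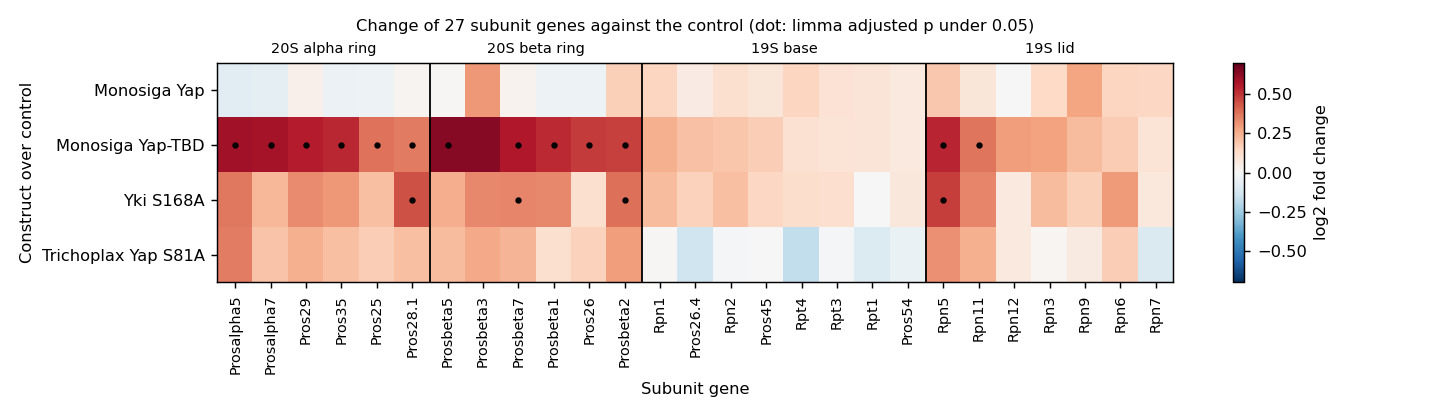
Log2 fold change against the control of the 27 subunit genes (columns, by ring, base and lid) with the 4 constructs (rows); a dot marks a limma adjusted p under 0.05. The core columns are darkest with Monosiga Yap-TBD, where 11 of 12 carry a dot, and the row of Monosiga Yap carries none; all rows share the control libraries.

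No subunit gene passed the adjusted threshold between Monosiga Yap-TBD and the other constructs with ectopic proliferation in the main test. These comparisons were added after the values were seen. Against Yki S168A, 0 of 27 subunit genes were called by limma, where 7.13% of all tested genes were called, 3.39% higher and 3.74% lower. An unadjusted limma p under 0.05 was found for 4 of the 27, where 19.4% of all tested genes had one. The groups did not overlap for 8 of the 27, 7 of them core genes, where this held for 25.5% of all tested genes. The core median was 0.22, with Pros28.1 on the other side of 0 (log2 -0.08, limma adjusted p = 0.741). Against Trichoplax Yap S81A, 0 of 27 were called by limma, where 6.32% of all tested genes were called, 2.98% higher and 3.33% lower. All 27 changes were positive in the main test, the smallest at 0.005. The lowest 19S change was -0.08 with quantile normalization and -0.03 without Trichoplax Yap S81A replicate 1. An unadjusted limma p under 0.05 was found for 10 of the 27, where 17.4% of all tested genes had one in either direction. For 14 of the 27 every Monosiga Yap-TBD library was the higher, where this held for 10.9% of all tested genes. The core median was 0.32. Without Trichoplax Yap S81A replicate 1 that median was 0.27, and again 0 of 27 were called. With quantile normalization Pros26 was called higher in both, and Prosalpha7 against Trichoplax Yap S81A. Between Trichoplax Yap S81A and Yki S168A, 0 of 30 members were called, where 0.510% of all tested genes were called, 0.347% higher and 0.163% lower. An unadjusted limma p under 0.05 was found for 4 of the 30, where 5.85% of all tested genes had one. Without Trichoplax Yap S81A replicate 1, 0 of 30 were called and 1 had an unadjusted p under 0.05 by limma. The extremes were Rpt4R (log2 -0.52, limma adjusted p = 0.768) and Prosap (log2 0.15, limma adjusted p = 0.952).

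The second copies went the other way with Monosiga Yap-TBD. Rpt4R (3L, 11935123 to 11936589), a copy of the base ATPase gene Rpt4, stood at 2.82, 3.82 and 2.56 FPKM in the control and at 1.17, 2.19 and 1.69 FPKM with Monosiga Yap. It stood at 1.98, 2.09 and 1.30 FPKM with Yki S168A and at 0.966, 1.26 and 0.629 FPKM with Trichoplax Yap S81A. With Monosiga Yap-TBD it was listed at 0 in replicate 1, and at 0.0695 and 0.183 FPKM in replicates 2 and 3. Every library of every construct was thus below every control library, and those of Monosiga Yap-TBD were the lowest.

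The fall of Rpt4R passed against the control with Monosiga Yap-TBD (log2(FPKM + 1) difference -1.90 ± 0.218 SE, limma adjusted p = 2.15e-05) and with Trichoplax Yap S81A (-1.06, limma adjusted p = 0.00519, where 6.09% of all tested genes fell). Without Trichoplax Yap S81A replicate 1 the latter was -1.07 (limma adjusted p = 0.0167). The difference did not pass with Monosiga Yap (-0.61, limma adjusted p = 0.723) or Yki S168A (-0.54, limma adjusted p = 0.131). Monosiga Yap-TBD was also below each of the other constructs, against Yki S168A (-1.36, limma adjusted p = 0.00139) and against Trichoplax Yap S81A (limma adjusted p = 0.0332). The latter call was lost without Trichoplax Yap S81A replicate 1 or 2, or without any 1 of the Monosiga Yap-TBD libraries. The added 1 FPKM understates changes of genes this low.

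Rpt3R (3R, 5580455 to 5581921), a copy of Rpt3, stood at 4.46, 4.0 and 3.97 FPKM in the control and at 1.87, 2.66 and 2.39 with Monosiga Yap-TBD. The groups did not overlap (log2(FPKM + 1) difference -0.64 ± 0.171 SE, limma adjusted p = 0.0133), but the call was lost without control replicate 1, without Monosiga Yap-TBD replicate 1 and with quantile normalization. In the other constructs it was 4.58, 4.08 and 4.13 FPKM with Monosiga Yap, 4.42, 5.56 and 5.25 with Yki S168A, and 6.45, 4.25 and 5.46 with Trichoplax Yap S81A. It was thus lower with Monosiga Yap-TBD than in all other groups, and these differences passed as well (limma adjusted p = 0.00943, 0.00541 and 0.00394). Without Trichoplax Yap S81A replicate 1 the last was 0.021 (limma adjusted p). The call against Monosiga Yap was lost without Monosiga Yap-TBD replicate 1, with quantile normalization and in a fit of those groups alone. The 8 testis markers summed to 2.44 to 4.31 FPKM in the control and to 0.698 to 4.70 with Monosiga Yap-TBD; their part was not tested. How reads that match both a subunit gene and its copy were assigned is not given in the sources used here, so levels of the copies are uncertain. Rpt3 and Rpt4 themselves had log2 fold changes of 0.09 and 0.11 with Monosiga Yap-TBD and did not pass.

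**Figure D5:**
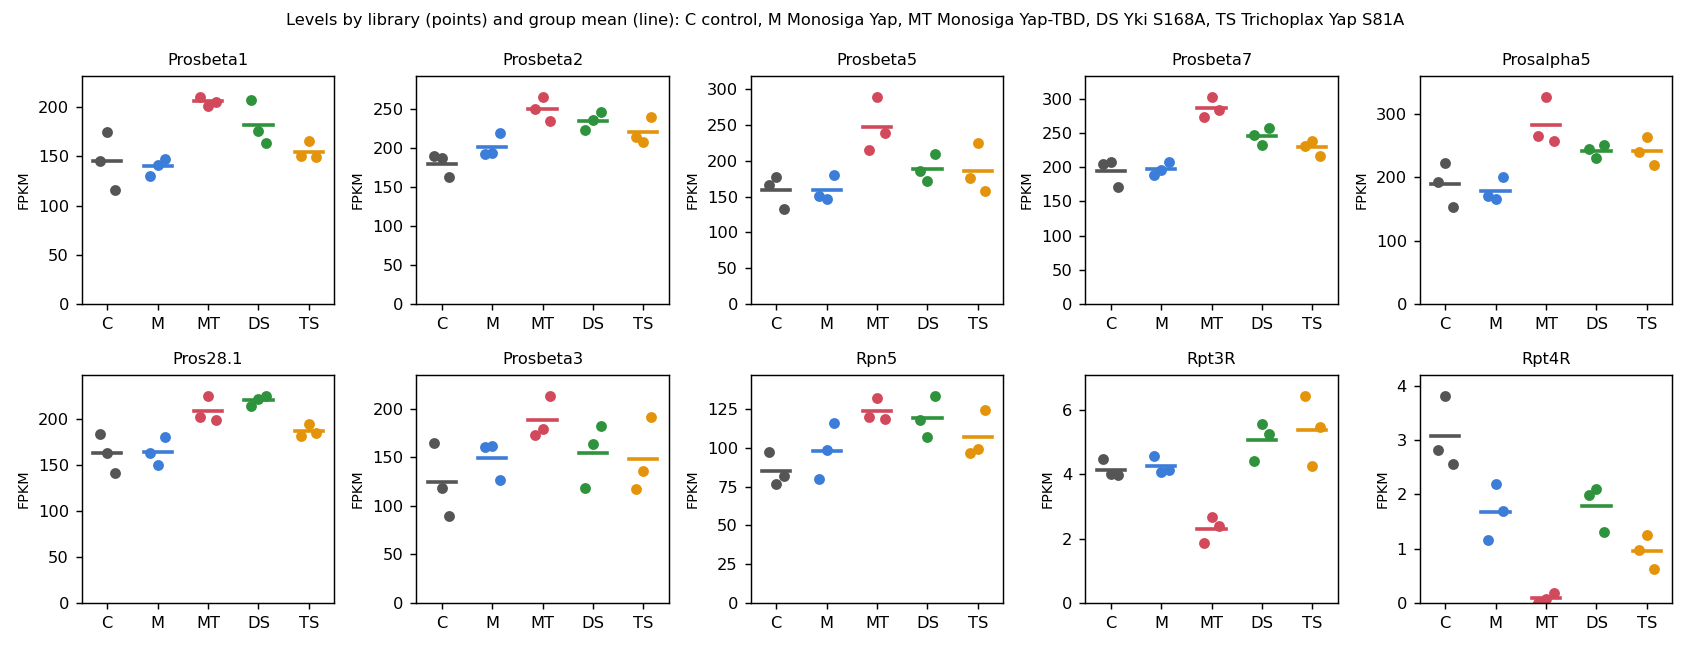
FPKM of 10 genes in each library (points) with the group mean (line), for the control (C), Monosiga Yap (M), Monosiga Yap-TBD (MT), Yki S168A (DS) and Trichoplax Yap S81A (TS). The catalytic genes Prosbeta1, Prosbeta2 and Prosbeta5 are above the control in all 3 MT libraries, and Rpt3R and Rpt4R are below it there.

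Prosap (2R, 9948984 to 10028403), which encodes a scaffold of synapses and not a subunit, followed another order. It stood at 39.4, 33.6 and 45.2 FPKM in the control, at 28.4, 53.2 and 36.0 with Monosiga Yap and at 33.6, 27.7 and 44.9 with Monosiga Yap-TBD. With Trichoplax Yap S81A it stood at 58.3, 69.4 and 75.0 FPKM, above every control library. It was the 1 member that rose with that construct (log2 0.76 ± 0.22 SE, limma adjusted p = 0.0361), where 6.09% of all tested genes rose. The call held without replicate 1 (limma adjusted p = 0.0446). It was lost without control replicate 1 or 2, without Trichoplax Yap S81A replicate 2 or 3, with the replicate number as a block, with quantile normalization and with no filter on low values. It was lower with Monosiga Yap-TBD than with Yki S168A (limma adjusted p = 0.0467) and Trichoplax Yap S81A (limma adjusted p = 0.0199), both lost without Monosiga Yap-TBD replicate 1 or 2. The former was also lost without Yki S168A replicate 1 or 2, with the replicate number as a block and with quantile normalization. The latter was also lost without Trichoplax Yap S81A replicate 2 or 3. It held without Trichoplax Yap S81A replicate 1 (log2 -1.03, limma adjusted p = 0.0298). Prosap overlaps CG42287 and CG42288 on the other strand.

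Across the 15 libraries, levels were on median more alike within the core and within the 19S particle than between them. The median correlation of log2 levels was 0.87 over the 66 pairs of core genes, 0.69 over the 105 pairs of 19S genes and 0.40 over the 180 mixed pairs. With the group means removed, these medians were 0.73, 0.71 and 0.36, so the medians also differed between replicates of a group. The ranges overlapped, from -0.12 to 0.97 in core pairs, 0.18 to 0.95 in 19S pairs and -0.27 to 0.89 in mixed pairs. All pairs share the libraries and their depth, and no test was made. The genes outside the rule whose levels were most like the mean of the core genes were Jafrac2 (r = 0.966), torp4a (r = 0.965), SmE (r = 0.962), mRpL3 (r = 0.960) and CG12279 (r = 0.959). For the 19S genes they were Tbp-1, which encodes the base ATPase Rpt5 (r = 0.937), cin (r = 0.884), alphaCop (r = 0.870), CG5126 (r = 0.864) and pont (r = 0.856). For all 27 they were CG3226 (r = 0.919), nudC, CG6726, san and CG17219.

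The members lie on every large chromosome arm, 8 on 2R, 9 on 3R, 6 on 3L, 3 on 2L and 4 on X, so they do not form 1 cluster. Of 30 members, 12 overlap another gene in the annotation, 11 of them on the other strand and Rpt1 on the same strand. The authors' deposited table, which compares each construct with the control, gave folds of 1.30 to 1.56 for the 12 core genes with Monosiga Yap-TBD, with a median of 1.47 and the authors' p under 0.05 in 11. Of all tested genes 25.6% were under that p in the authors' deposited table with Monosiga Yap-TBD, 19.6% with Yki S168A and 16.9% with Trichoplax Yap S81A. The core gene above it was Prosbeta1 in the authors' deposited table (p = 0.0641), and not Prosbeta3 (p = 0.00169). In the authors' deposited table the 19S median was 1.18, with 1 of 15 genes under that p. With Yki S168A the authors' deposited table gave medians of 1.32 for the core and 1.20 for the 19S particle, and 5 of 12 and 4 of 15 genes under that p. With Trichoplax Yap S81A it gave 0 of 27 subunits.

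Subunits and partners whose symbols the rule does not catch were followed as a list of 11 tested genes. With Monosiga Yap-TBD against the control 6 of the 11 rose, where 12.6% of all tested genes rose, with a median log2 fold change of 0.32. They were CG17331, the beta4 subunit gene (203 to 280 FPKM, limma adjusted p = 0.0076), the base ATPase gene Tbp-1 (limma adjusted p = 0.040), and CG13779, the gene of the small subunit Sem1. The others were Pomp, a chaperone of core assembly, Uch-L3, a deubiquitinase of the 19S particle, and REG, an activator that can bind the core in place of the 19S particle (173 to 294 FPKM, log2 0.77, limma adjusted p = 0.00322). Mov34, the lid subunit Rpn8, and CG13349, the ubiquitin receptor Rpn13, did not pass (limma adjusted p = 0.152 and 0.774). Against Monosiga Yap 4 of the 11 were higher (CG17331, Pomp, Uch-L3 and REG), where 14.3% of all tested genes were. With Yki S168A 2 rose (CG17331 and Uch-L3), where 5.42% of all tested genes rose. With Trichoplax Yap S81A, Uch-L3 was called higher (log2 0.53, limma adjusted p = 0.0369) and CG13349 lower (log2 -0.36, limma adjusted p = 0.0396). Both calls were lost without replicate 1, the library with fat body markers (limma adjusted p = 0.0612 for Uch-L3 and 0.105 for CG13349).

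Genes that act before the proteasome were followed in the same way. Of 20 ubiquitin and ubiquitin ligase genes none rose with Monosiga Yap-TBD against the control, where 12.6% of all tested genes rose. RpL40, which encodes ubiquitin fused to a ribosomal protein, fell (limma adjusted p = 0.00276), where 12.0% of all tested genes fell. The median of the list was 0.02. Against Monosiga Yap, RpL40, Cul-3, lin19 and the polyubiquitin gene Ubi-p63E were lower, where 12.2% of all tested genes were. Of 7 genes of p97, the ATPase that extracts ubiquitinated proteins, and its cofactors, 0 were called against the control by limma. Over all tested genes 24.6% were called there, and the median of the p97 list was -0.03. Of 8 genes of the COP9 signalosome, a relative of the lid that removes Nedd8 from cullins, 3 rose, where 12.6% of all tested genes rose: CSN5 (log2 0.62, limma adjusted p = 0.00538), CSN8 and alien. Whether these lists differ from the core was not tested.

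Lists of neighbouring functions gave mixed counts for Monosiga Yap-TBD against the control. The gene cnc, whose protein activates proteasome genes in flies when the proteasome is inhibited, was at 21.2 FPKM in the control and 22.7 FPKM with Monosiga Yap-TBD and did not pass (log2 0.09, limma adjusted p = 0.736). Of 12 genes of cnc and the antioxidant response, GstD1 (732 to 1598 FPKM, limma adjusted p = 0.000192) and Zw rose and Men fell. Over all tested genes 12.6% rose and 12.0% fell. Of 10 chaperonin and Hsp genes of the cytosol, 5 rose against the control, where 12.6% of all tested genes rose, with a median of 0.32. Of the same 10, all but Hsp83 were higher than with Monosiga Yap, where 14.3% of all tested genes were.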

How the data were processed

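RNA of each genotype was extracted in triplicate and sequenced as polyadenylated RNA, per the labels' protocols. The authors deposited FPKM values per gene and library. The authors also deposited a table of the 4 constructs against the control, with natural log ratios limited to -6 to 6, p-values, an adjusted score that exceeds 1 and a log2 mean level; the last 2 were not used. The submitters' processing notes name CASAVA 1.7.0, TopHat 1.0.14, Cufflinks, Cuffdiff 1.0.2 and the build dm3, with no order. How strand and shared reads were treated is not given in the sources used here.

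Genes with at least 1 FPKM in at least 3 libraries (9213 of 14671) were tested as log2(FPKM + 1) with limma 3.58.1 in R 4.3.3, with trended and robust empirical Bayes over all 15 libraries. P-values were two-sided, adjusted by Benjamini-Hochberg over all tested genes, and called under 0.05. Fold changes on this scale understate those of low genes. A fold is the mean FPKM of one group over that of the other. The script was tested on simulated data. Depth was estimated from the steps of low FPKM values, and intervals from it cover counting error only. Tables were handled in Python 3.11.15. The labels do not say that a replicate number marks shared animals or days, and the main test has no replicate block.

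The members and the gene lists were chosen with earlier results of these data known. Values in each library are given for the catalytic beta subunits, for the members called most often, for the largest and smallest change in each comparison and for called members that go against the median; other members given with values were chosen after these were seen. Older symbols of a list that name the same gene were merged. Alternatives were the pseudocount (0.1), no filter on low values, quantile normalization, a fit of only the groups compared, a replicate block, array weights, an axis of within-group variation as covariate, and leaving out each library. Leaving out Trichoplax Yap S81A replicate 1 for Uch-L3 and CG13349 was chosen after seeing the data.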

Additional observations from a re-analysis of the deposited data

How the results depend on the processing

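No direction of a called gene reversed under the alternatives run. The member counts below are given without the share of all tested genes called under the same setting. They thus do not show that a setting changed the members more than other genes. Against the control with Monosiga Yap-TBD, leaving out 1 library gave 8 to 14 members higher and 1 to 2 lower; quantile normalization gave 1 lower. The median of all members there was 0.12 with quantile normalization and 0.15 with array weights. With Yki S168A, leaving out 1 library gave 0 to 4 members higher. A fit of only the groups compared gave 2, array weights 9 higher and 1 lower, and the within-group axis 7 higher and 1 lower. With Trichoplax Yap S81A, leaving out 1 library gave 0 to 1 higher; there were 0 without the low filter, with quantile normalization or with the replicate block, 3 with array weights and 2 with the axis. Against Monosiga Yap, leaving out 1 library gave 8 to 14 higher, 1 to 2 lower and a median of 0.12 to 0.26. A fit of only those groups gave 7 higher and 1 lower, and quantile normalization a median of 0.019. Between Trichoplax Yap S81A and Yki S168A, array weights gave 2 lower (Pros26.4 and Rpt4). The causes were not tested. Of 30 same-numbered pairs of libraries 6 had a correlation of deviations over 0.1 (median -0.04), so the numbers were not taken to pair the samples. With the replicate block 13 members were higher with Monosiga Yap-TBD against the control and 11 against Monosiga Yap, 3 with Yki S168A and 0 with Trichoplax Yap S81A. The array weights stopped before full convergence. With 3 libraries a group, the median standard error was 0.116 over the members and 0.193 over all tested genes.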
